A study of Mus musculus with 6 samples.

Results

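Ribosome rescue and recycling factors were followed as 8 genes, Pelo, Hbs1l, Abce1, Gtpbp1, Gtpbp2, Zfp598, Nemf and Ltn1, taken by symbol from the 54232 gene IDs counted in each library. All 8 passed the filter on low counts. The RNA came from C57/B6 mouse fetal liver at embryonic stage E13.5, after removal of cells carrying Ter-119, an antigen of maturing red cells. The 3 day 0 libraries are of these purified cells with no treatment. The 3 libraries at 30 h are of cells grown in medium with EPO (erythropoietin), the growth factor of red cell precursors. They received the solvent DMSO at 24 h and were harvested at 30 h. No library analysed here was treated with Z-VAD-FMK, a blocker of caspases. The comparison asks which of these transcripts differed after 30 h of culture, where the culture, the solvent and the time cannot be told apart.

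A ribosome that stalls on a messenger RNA is sensed, split and cleared by a series of factors. Pelo, a relative of the termination factor that reads stop codons, enters the empty site of a stalled ribosome together with the GTPase Hbs1l, and the ATPase Abce1 then separates the subunits. Gtpbp1 and Gtpbp2 are GTPases related to Hbs1l that act on paused ribosomes. Zfp598 is a ubiquitin ligase that marks collided ribosomes. Nemf binds the large subunit that still holds an unfinished chain and recruits the ubiquitin ligase Ltn1, which marks that chain for degradation. In maturing red cells and platelets, which keep translating after transcription ends, rescue by Pelo and Hbs1l is known to support translation, including that of globin.

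The promoter windows of Pelo, Hbs1l, Gtpbp2 and Abce1 are shown for the following reasons. Pelo and Hbs1l, whose proteins act as a pair, moved in opposite directions in the main test, though not under every alternative given below. Gtpbp2 had the largest change, and Abce1 is the most abundant of the 8 at day 0. Each window runs from 250 bases before to 50 bases after the RefSeq gene start on build GRCm38.p6 and is written 5′ to 3′ on the gene's strand. Capitals mark matches to the motifs searched. The windows are chr13:115090109-115090408 on the minus strand for Pelo, chr10:21295729-21296028 on the plus strand for Hbs1l, chr17:46160782-46161081 on the plus strand for Gtpbp2 and chr8:79711691-79711990 on the minus strand for Abce1.
Pelo: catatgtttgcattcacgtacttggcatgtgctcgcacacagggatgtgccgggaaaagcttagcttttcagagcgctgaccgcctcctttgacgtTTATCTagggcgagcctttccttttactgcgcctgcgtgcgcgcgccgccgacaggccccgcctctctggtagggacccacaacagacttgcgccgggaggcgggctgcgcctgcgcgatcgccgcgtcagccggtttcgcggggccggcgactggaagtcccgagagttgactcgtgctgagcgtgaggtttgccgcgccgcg
Hbs1l: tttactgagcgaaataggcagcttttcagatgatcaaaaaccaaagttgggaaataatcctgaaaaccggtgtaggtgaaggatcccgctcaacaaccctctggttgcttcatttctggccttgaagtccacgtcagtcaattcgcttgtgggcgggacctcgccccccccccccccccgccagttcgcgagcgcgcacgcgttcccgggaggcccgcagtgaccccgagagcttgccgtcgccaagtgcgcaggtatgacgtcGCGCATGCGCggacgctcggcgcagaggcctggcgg
Gtpbp2: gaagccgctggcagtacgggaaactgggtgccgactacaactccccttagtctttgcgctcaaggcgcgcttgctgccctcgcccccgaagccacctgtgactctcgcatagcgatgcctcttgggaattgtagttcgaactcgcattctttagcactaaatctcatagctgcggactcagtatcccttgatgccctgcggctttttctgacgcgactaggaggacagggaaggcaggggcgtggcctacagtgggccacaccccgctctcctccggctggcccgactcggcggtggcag
Abce1: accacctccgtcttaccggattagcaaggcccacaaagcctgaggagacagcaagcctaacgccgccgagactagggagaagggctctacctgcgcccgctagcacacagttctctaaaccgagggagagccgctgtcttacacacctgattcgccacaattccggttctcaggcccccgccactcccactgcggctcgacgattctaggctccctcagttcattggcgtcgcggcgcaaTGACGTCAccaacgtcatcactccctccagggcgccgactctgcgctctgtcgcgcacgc

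Six-base and eight-base motifs were searched on both strands of the windows of all 8 genes, which were all found in the RefSeq table, and of all 32851 windows. The GATA motif AGATAA was found in the window of Pelo, on the opposite strand with its first printed base at position -154 from the start, and in 11.2% of all windows. GCGCATGC, a motif of the factor NRF1, was found in the window of Hbs1l, where matches on the 2 strands overlap just after the start, and in 2.71% of all windows. The cyclic AMP response element TGACGTCA was found in the window of Abce1, 10 bases before the start, and in 1.79% of all windows. TGATAA, another GATA motif, the E-box CACGTG and the stress response element TGATGCAA, present in 9.05%, 7.15% and 0.895% of all windows, had no match in any of the 8. The GC content of the 8 windows ran from 44% for Nemf to 64% for Pelo, against a median of 52.7% over all windows.

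Library totals ran from 27754279 to 29949173 counts at day 0 and from 19241780 to 24154481 counts at 30 h. The test covered 16150 genes and called 5553 of them higher and 6483 lower. Higher genes were 46.1% of the calls, against 29.1% with scaling by library totals only and 56.3% once each library's trend with GC content was removed. The median log2 change of all genes was -0.094 with TMM scaling, -0.581 with totals only, -0.234 with upper-quartile scaling and 0.18 with the GC trend removed. Among marker lists, all 12 erythroid genes rose, with a summed level of 1993 to 2198 CPM at day 0 and 122400 to 175200 CPM at 30 h, and 5 of 6 progenitor genes fell. All 8 hepatoblast, 7 endothelial and 7 mesenchymal genes fell, from 13660 to 15500, 201 to 229 and 1458 to 1863 CPM summed at day 0 to 782 to 2254, 34.1 to 42.9 and 20.7 to 41.4 CPM at 30 h. Of 7 macrophage genes 3 rose and 1 fell (139 to 154 and 150 to 228 CPM summed), and of 6 megakaryocyte genes 1 rose and 3 fell (534 to 631 and 560 to 956 CPM). No marker was at 0 in all libraries. The part of these cells in the results below was not tested, and in bulk RNA fewer cells of a type and less RNA per cell cannot be told apart. The labels do not say whether a group's libraries come from separate animals or cultures; the p-values speak only for the spread among these libraries, which may be technical. The library of 30 h replicate 3 stood apart from the other 30 h libraries (chi-square per degree of freedom 88.6 and 48.8 against replicates 1 and 2, which differed from each other by 11).

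The 8 genes did not move together. Gtpbp2, Hbs1l and Nemf rose, Pelo, Abce1 and Ltn1 fell, and Gtpbp1 and Zfp598 did not pass the test (edgeR's quasi-likelihood test, Benjamini-Hochberg adjustment over all genes, threshold 0.05). The 6 called are 75% of the 8, against 74.5% of all genes tested, so the share called was near the background. By direction, 34.4% of all genes tested rose and 40.1% fell, against 3 of the 8 each way. The groups did not overlap for 7 of the 8 genes, or 87.5%, against 79.7% of all genes tested. The median log2 change of the 8 was -0.041. Levels below are CPM, counts per 1000000 counts of the TMM-scaled library, in replicates 1, 2 and 3 of each group, and changes are 30 h minus day 0 on the log2 scale with their standard error.

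**Figure D1:**
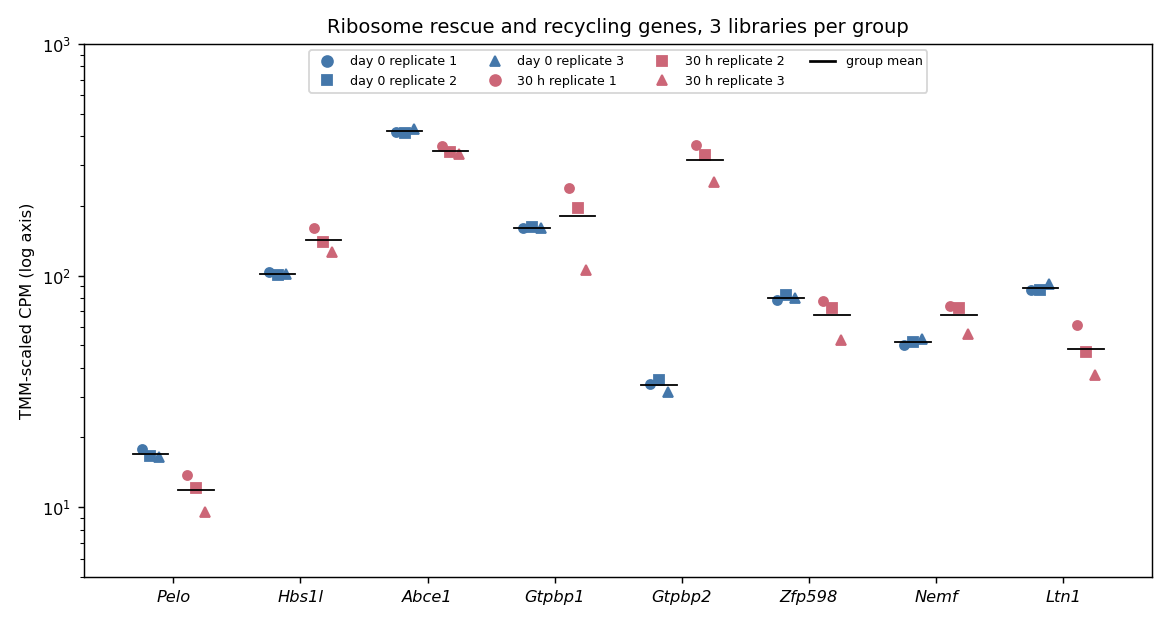
TMM-scaled CPM (log axis) of the 8 genes in each of the 3 day 0 (blue) and 3 30 h (red) libraries, with symbols for replicates and bars for group means. Gtpbp2 rose from about 33.6 to 316 CPM, and 30 h replicate 3 (red triangle) was the lowest 30 h library for all 8 genes.

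Pelo encodes the factor that recognises the stalled ribosome. It had 628, 576 and 540 counts at day 0 and 279, 204 and 151 at 30 h. Its levels were 17.8, 16.6 and 16.4 CPM at day 0 (mean 16.9 ± 0.730, SD, n = 3) and 13.8, 12.2 and 9.51 CPM at 30 h (11.8 ± 2.15, SD, n = 3). All 3 libraries at 30 h lay below all 3 at day 0, and the change was -0.52 (SE 0.15, edgeR adjusted p = 0.0135), a 1.43-fold fall. With the GC trend removed the sign turned, to a change of 0.19 that did not pass (edgeR adjusted p = 0.288). The annotated Pelo transcript is 57.9% GC.

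Much of the exon of Pelo is shared with other annotated genes, so its level is uncertain. The gene (chromosome 13, 115088355 to 115090186, minus strand, GRCm38) has 1600 bases of exon and lies inside an intron of Itga1, an integrin gene, with no exon in common. The annotated gene Gm49395, on the same strand, covers 739 of those bases (46.2%), and the antisense gene Gm10734 covers 468 on the other strand. Both IDs are listed in the count files, with 0 to 6 counts for Gm49395 and 4 to 24 for Gm10734. HTSeq by default leaves out reads that fit more than 1 gene, and the settings used are not given in the sources used here. Without the shared bases 526 bases, or 32.9%, are left to Pelo alone. Its whole count divided by that length gives 32.2 CPM per kb at day 0, against 10.6 CPM per kb over all its exons. If only bases shared on the same strand are set aside, 861 bases are left and the value is 19.65. Reads over those bases alone were not counted. Itga1, which is also a mesenchymal gene, stood at 7.18, 7.13 and 7.47 CPM at day 0 and 3.16, 3.99 and 2.52 CPM at 30 h, a 2.25-fold fall (edgeR adjusted p = 0.000514).

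Hbs1l, the GTPase partner of Pelo (chromosome 10, 21295979 to 21368898), went up. Its levels were 103, 101 and 102 CPM at day 0 (102 ± 1.28, SD, n = 3) and 161, 140 and 126 CPM at 30 h (142 ± 17.4, SD, n = 3). The groups did not overlap, and the change was 0.48 (SE 0.11, edgeR adjusted p = 0.00451), a 1.40-fold rise that became -0.007 with totals only (edgeR adjusted p = 0.959). With the GC trend removed it was 0.73 (edgeR adjusted p = 0.000571). The locus is annotated with 10 transcripts, one class of which encodes a protein of messenger RNA decay rather than the GTPase, and counts per gene do not separate them. The antisense gene 4930455C13Rik covers 266 of its 6051 exon bases and had 0 to 7 counts.

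Abce1, which splits the subunits after rescue and after normal termination, was the most abundant of the 8 at day 0. It stood at 418, 411 and 430 CPM at day 0 (420 ± 9.83, SD, n = 3) and at 362, 343 and 334 CPM at 30 h (346 ± 14.1, SD, n = 3). The groups did not overlap, but the fall was small, 1.21-fold (change -0.28, SE 0.09, edgeR adjusted p = 0.0196). It missed the threshold with DESeq2 size factors (edgeR adjusted p = 0.0525), without day 0 replicate 1, 2 or 3 (0.065, 0.0506 and 0.0758) and without 30 h replicate 2 (0.0689). With totals only the change was -0.77 (edgeR adjusted p = 0.000111), and removal of the GC trend gave -0.47 (edgeR adjusted p = 0.00342).

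The GTPase genes Gtpbp1 and Gtpbp2 parted. Gtpbp2 (chromosome 17, 46161032 to 46169370) had 34.1, 35.5 and 31.4 CPM at day 0 (33.6 ± 2.08, SD, n = 3) and 365, 331 and 252 CPM at 30 h (316 ± 57.8, SD, n = 3). Every 30 h library was far above every day 0 library, and the rise was 9.40-fold (change 3.23, SE 0.16, edgeR adjusted p = 1.84e-06). With TMM scaling of all libraries no other of the 8 changed by at least 2-fold, as 20.6% of all genes tested did upward and 28.2% downward. However, Ltn1 also fell by at least that much with totals only (-1.36), without 30 h replicate 1 (-1.02) and with upper-quartile scaling (-1.02). Pelo did so with totals only (-1.002). Over all the alternatives run the change of Gtpbp2 lay between 2.75 and 3.79, past the threshold in each.

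The gene Gm26884, on the other strand, covers 254 of the 4001 exon bases of Gtpbp1 (chromosome 15, 79690845 to 79721479) and had 1 to 10 counts. Gtpbp1 had 160, 162 and 160 CPM at day 0 (161 ± 1.22, SD, n = 3). At 30 h it had 239 and 196 CPM in replicates 1 and 2 but 106 CPM in replicate 3 (180 ± 68.1, SD, n = 3). The groups thus overlapped, with 2 libraries above day 0 and 1 below it, and the change of 0.16 (SE 0.26) did not pass (edgeR adjusted p = 0.584). Without 30 h replicate 3 the change was 0.44 and passed (edgeR adjusted p = 0.000394), and removal of the GC trend gave 0.74 (edgeR adjusted p = 0.0194). Its sign was negative with totals only (-0.32) and without 30 h replicate 1 (-0.05), and it did not pass in either.

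Zfp598, the ligase of collided ribosomes (chromosome 17, 24669687 to 24682016), had 78.6, 82.2 and 80.2 CPM at day 0 (80.3 ± 1.84, SD, n = 3) and 77.7, 72.8 and 53.0 CPM at 30 h (67.8 ± 13.1, SD, n = 3). Its groups did not overlap, but by less than 1 CPM at their nearest, and the change of -0.24 (SE 0.15) did not pass (edgeR adjusted p = 0.164). Without 30 h replicate 3 the change was -0.09. It was called lower with totals only (-0.73, edgeR adjusted p = 0.00344), with upper-quartile scaling (-0.39, edgeR adjusted p = 0.0123) and with no filter on low counts (-0.34, edgeR adjusted p = 0.0477), and higher with the GC trend removed (0.61, edgeR adjusted p = 0.0042). Its longest transcript is 59.4% GC, the highest of the 8.

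Nemf and Ltn1, whose proteins act in turn on the large subunit, went in opposite directions with TMM scaling. Their changes were both negative with totals only. Ltn1 (chromosome 16, 87376651 to 87432612) stood at 86.7, 86.7 and 92.0 CPM at day 0 (88.5 ± 3.09, SD, n = 3) and at 61.1, 46.8 and 37.3 CPM at 30 h (48.4 ± 11.98, SD, n = 3). It fell 1.83-fold (change -0.87, SE 0.17, edgeR adjusted p = 0.00202) with no overlap of the groups, and over all the alternatives run its change lay between -1.36 and -0.71, past the threshold in each. Nemf (chromosome 12, 69310522 to 69357165) stood at 50.04, 51.5 and 53.4 CPM at day 0 (51.6 ± 1.66, SD, n = 3) and at 73.7, 72.4 and 56.0 CPM at 30 h (67.3 ± 9.86, SD, n = 3).

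The rise of Nemf was 1.30-fold (change 0.38, SE 0.12, edgeR adjusted p = 0.0226), and replicate 3 lay just above the day 0 libraries. With totals only the change was -0.10 (edgeR adjusted p = 0.514), and the call was lost with no filter on low counts (edgeR adjusted p = 0.0797) and after removal of the GC trend (0.0504). It was also lost without day 0 replicate 1, 2 or 3 (0.0955, 0.0846 and 0.0654) or 30 h replicate 2 (0.0903), while without 30 h replicate 3 the change was 0.50 (edgeR adjusted p = 3.8e-05). The last 166 of the 10549 exon bases of Nemf overlap Klhdc2, a ubiquitin ligase subunit gene on the other strand, which rose 2.38-fold from 152 ± 6.68 to 362 ± 43.4 CPM (SD, n = 3 each).

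**Figure D2:**
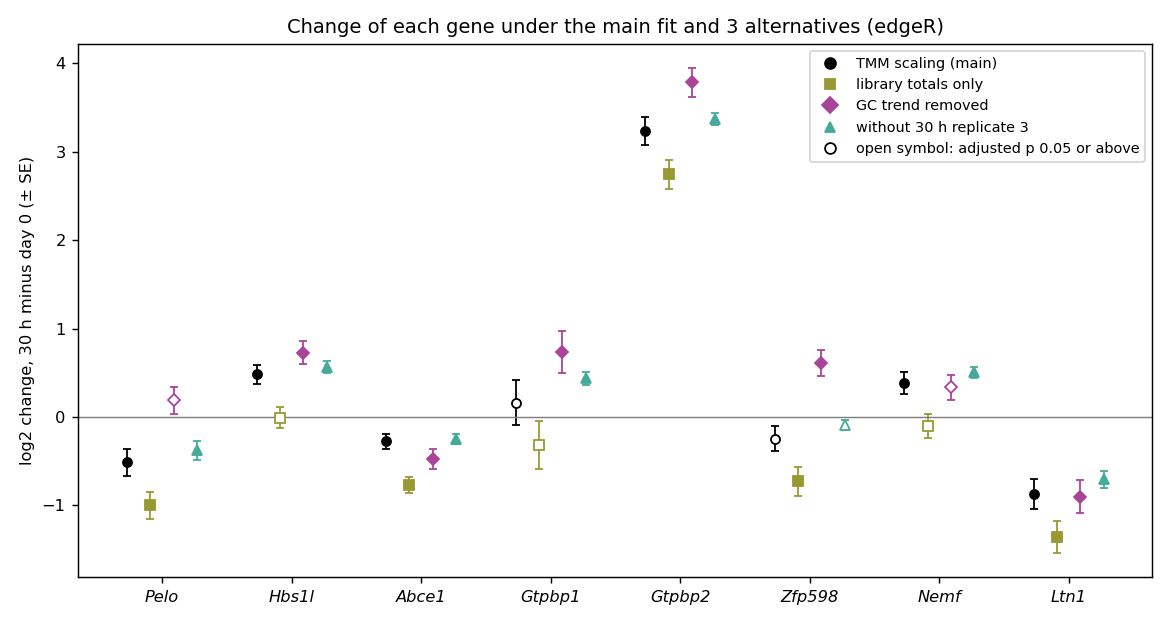
Log2 change, 30 h minus day 0, of each gene with its SE from edgeR, under TMM scaling (black), totals only (olive), the GC trend removed (purple) and without 30 h replicate 3 (green); open symbols have an adjusted p of 0.05 or above. Gtpbp2, Ltn1 and Abce1 keep their sign under all 4, whereas Pelo and Zfp598 turn positive with the GC trend removed and Hbs1l, Nemf and Gtpbp1 turn negative with totals only.

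The 8 genes had their lowest 30 h level in the same library. Replicate 3 was the lowest of the 30 h libraries for all 8 genes, as it was for 43.5% of all genes tested. All 8 also ran from high to low in the order of 30 h replicates 1, 2 and 3, as did 30.7% of all genes tested. The highest 30 h library exceeded the lowest by 2.26 times for Gtpbp1, 1.64 times for Ltn1 and 1.08 times for Abce1, against a median of 1.46 over all genes tested. At day 0 the same ratio was 1.01 for Gtpbp1, 1.02 for Hbs1l and 1.08 for Pelo, and it was highest for Gtpbp2.

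The order of the levels, which can be compared between genes only per length, changed mainly through Gtpbp2. At day 0 it ran, in CPM per kb of annotated exon, from Abce1 (69.9 ± 1.64) through Gtpbp1 (40.3), Zfp598 (20.6), Hbs1l (16.9), Ltn1 (11.3), Pelo (10.6) and Gtpbp2 (6.34) to Nemf (4.89 ± 0.157, SD, n = 3 each). Of these neighbours Ltn1 and Pelo overlapped. At 30 h Gtpbp2 (59.6 ± 10.9), Abce1 (57.7 ± 2.35) and Gtpbp1 (45.1 ± 17.0) overlapped at the top, followed by Hbs1l (23.5), which overlapped Gtpbp1, and Zfp598 (17.4). Pelo (7.38), Nemf (6.38) and Ltn1 (6.17) overlapped at the bottom. Gtpbp2 thus moved from percentile 62.4 to percentile 92.9 of all genes tested, and Ltn1 from 73.5 to 61.2. Annotated exon length counts rare transcripts too: per kb of the longest transcript Hbs1l stood at 36.5 CPM at day 0, above Zfp598 at 23.96, and Gtpbp2 (11.35) and Nemf (10.9) stood above Pelo (10.6). Divided by the length that no other gene shares, the whole count of Pelo gave 32.2 CPM per kb at day 0 and 22.45 at 30 h. With only genes on the same strand set aside it gave 19.65 and 13.72, so the place of Pelo in the order is uncertain.

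Ratios between partner genes within a library do not depend on how libraries were scaled. Pairs were set by role, 6 in all, as ratios of counts per kb of exon. For each, 3 against 3 libraries cannot give a two-sided exact permutation p under 0.1.

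The ratio of Pelo to Hbs1l was 0.649, 0.623 and 0.609 at day 0 and 0.324, 0.328 and 0.285 at 30 h. It was lower in every 30 h library, 2.01-fold on average (log2 difference -1.01, exact permutation p = 0.1, adjusted 0.12 over the 6 pairs), and its log2 difference was -0.55 with the GC trend removed, an alternative chosen after seeing the data. Against the termination factors that they resemble, the genes differed. The ratio of Hbs1l to its relative Gspt1 rose from 0.218, 0.213 and 0.213 to 0.517, 0.498 and 0.573, or 2.46-fold (exact permutation p = 0.1, adjusted 0.12), as Gspt1 itself fell 1.75-fold. The ratio of Pelo to its relative Etf1 overlapped between the groups (log2 difference -0.21, exact permutation p = 0.2, adjusted 0.2) and turned to 0.43 with the GC trend removed.

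The ratio of Gtpbp1 to Gtpbp2 was 6.24, 6.07 and 6.77 at day 0 and 0.867, 0.786 and 0.555 at 30 h, so that the more abundant of these genes per length changed in every library (8.79-fold, exact permutation p = 0.1, adjusted 0.12). The ratio of Nemf to Ltn1 rose 2.42-fold, from 0.429, 0.442 and 0.431 to 0.897, 1.15 and 1.12 (exact permutation p = 0.1, adjusted 0.12). With the GC trend removed the log2 differences of these pairs were -3.11 and 1.26, close to -3.14 and 1.27 without that step. Abce1 relative to Pelo was 1.20-fold higher at 30 h with no overlap (log2 difference 0.26, exact permutation p = 0.1, adjusted 0.12), but its log2 difference was 0.13 when 30 h replicate 3 was left out and -0.64 after removal of the GC trend.

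**Figure D3:**
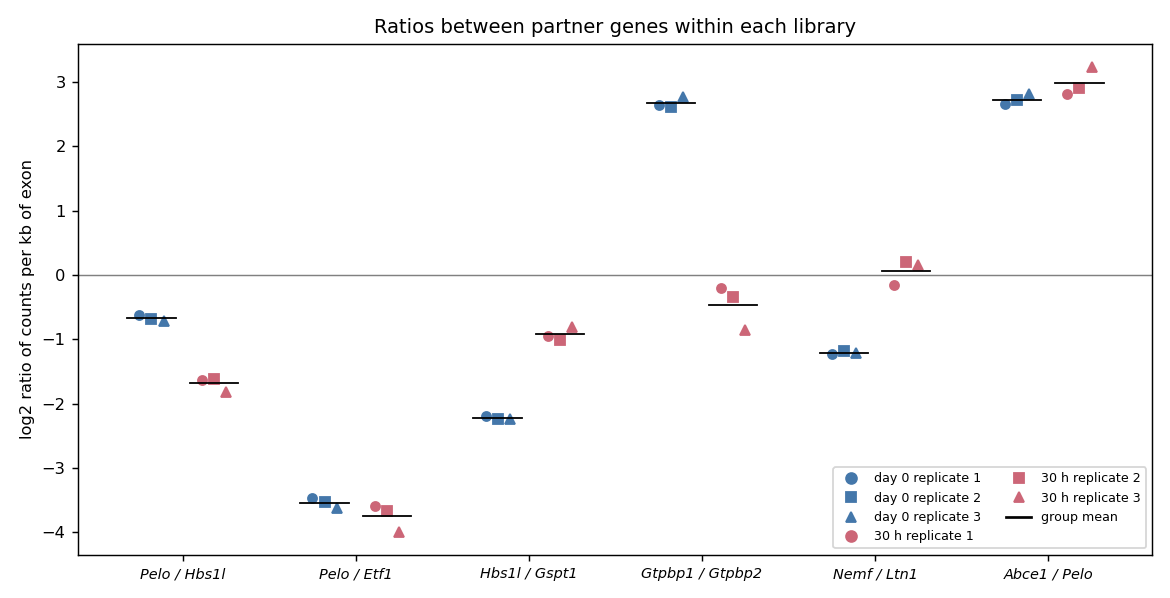
Log2 ratio of counts per kb of exon for 6 pairs of partner genes in each day 0 (blue) and 30 h (red) library, with bars for group means. The groups are apart for all pairs except Pelo to Etf1, and Gtpbp1 to Gtpbp2 crosses 0, from 2.67 to -0.47.

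Transcripts of the ribosome itself went up. Of 77 cytosolic ribosomal protein genes, 76 were tested, 69 rose and 3 fell, with a median log2 change of 1.20, and together they held 2.95% to 3.16% of counts at day 0 and 4.8% to 6.75% at 30 h, highest in replicate 3. Reads that these genes share with their many pseudogenes make their counts uncertain. Set against these genes, 7 of the 8 rescue and recycling genes were lower in all 3 libraries at 30 h than in all 3 at day 0, and Gtpbp2 was higher (exact permutation p = 0.1 for each, adjusted 0.1 over the 8). The upper quartile of the log2 change of all genes tested was 0.81, below that median of 1.20. By this measure most genes tested would thus be lower on average. The share of all genes that were apart was not counted, so 7 of 8 cannot be read as particular to these genes.

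Pelo went from 664, 667 and 619 to 240.5, 207 and 115 per 1000000 counts of ribosomal protein genes, 3.63-fold lower. Ltn1 was 4.67-fold lower, Abce1 3.04-fold, Zfp598 3.01-fold, Gtpbp1 2.37-fold, Nemf 1.93-fold and Hbs1l 1.80-fold lower, while Gtpbp2 was 3.71-fold higher. With the GC trend removed the 8 directions were as before, with log2 differences from -2.69 for Ltn1 to -1.03 for Hbs1l and 2.02 for Gtpbp2.

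**Figure D4:**
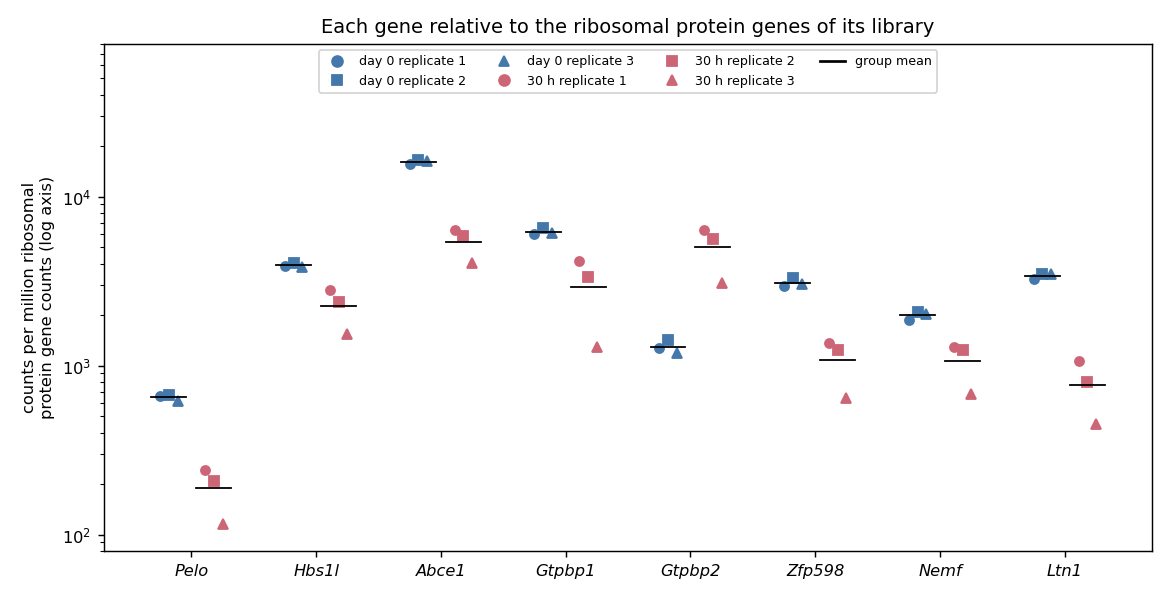
Counts of each gene per 1000000 counts of the ribosomal protein genes in the same library (log axis), for 3 day 0 (blue) and 3 30 h (red) libraries, with bars for group means. Gtpbp2 lies higher at 30 h and the other 7 genes lie lower, with no overlap of the groups. The ribosomal protein genes themselves rose, with a median log2 change of 1.20. Most genes tested would thus lie lower on average by this measure, and the share of all genes that were apart was not counted.

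The other genes of these pathways went both ways. In 6 lists with 69 genes, 68 were tested, 26 rose and 15 fell, so 60.3% were called, against 74.5% of all genes tested; the counts were 13 and 34 with totals only. The median log2 change was 0.03.

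Among 11 genes of termination and canonical recycling, 4 rose and 4 fell. The release factor genes fell: Etf1 from 455 ± 9.81 to 364 ± 18.2 CPM (edgeR adjusted p = 0.0108, or 0.0613 after removal of the GC trend), Gspt1 from 426 ± 2.08 to 243 ± 41.6 CPM (edgeR adjusted p = 0.000788) and the scarce Gspt2 2.29-fold (SD, n = 3 each). Eif1, which helps release the last transfer RNA and messenger RNA from the small subunit, rose 3.28-fold, and Eif2d and Mcts1, which act at the same step, rose 1.92-fold and 1.40-fold. With totals only the change of Mcts1 was -0.007, and it also missed the threshold with upper-quartile scaling and after removal of the GC trend. Denr, the partner of Mcts1, did not pass (147 and 138 CPM), but was called lower without 30 h replicate 3 (-0.27) and with totals only (-0.59).

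Of 17 genes of collision sensing and ribosome ubiquitination, 8 rose and 3 fell (3 and 7 with totals only, and 5 lower with upper-quartile scaling). Rack1, a protein of the small subunit at the site where collided ribosomes touch, rose 2.57-fold from 3025 CPM, and Edf1, which binds collided ribosomes, rose 1.96-fold (log2 change 0.97, or 1.66 after removal of the GC trend). Gcn1l1, which carries the collision signal to an initiation factor kinase, fell 3.03-fold from 208 to 68.5 CPM (log2 change -1.60, or -2.08 with totals only and -0.83 after removal of the GC trend), and Usp10, which removes ubiquitin from the small subunit, fell 2.45-fold. Of the 4 genes listed for subunit splitting, those of the ASC-1 complex, Trip4 rose 1.92-fold and Ascc1, Ascc2 and Ascc3 did not pass (Ascc3 rose by 0.33 without 30 h replicate 3). Ascc1, the most abundant of them per length, had a change of 0.11, which was -0.38 with totals only and 0.48 after removal of the GC trend, past the threshold in both.

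Downstream of Nemf and Ltn1, 4 of 10 genes of chain extraction and degradation rose and 2 fell (5 fell with totals only, but 1 after removal of the GC trend, and 1 when any of day 0 replicates 1, 2 and 3 or 30 h replicate 2 was left out). Ankzf1, which frees the chain from its transfer RNA, rose 2.37-fold, Ufd1, an adaptor of the extracting ATPase, rose 2.04-fold, and Vcp, the ATPase itself, fell 1.91-fold from 130 to 68.2 CPM. Rchy1, a ligase that can act on tailed chains in place of Ltn1, rose 1.85-fold, and Tcf25, which works with Ltn1, rose 1.31-fold, a change that was -0.10 with totals only and missed the threshold without day 0 replicate 3 (edgeR adjusted p = 0.0519). Of 15 genes of messenger RNA decay tested, 5 rose and 5 fell (0 and 9 with totals only). Without 30 h replicate 3, 8 fell, while 3, 2 and 3 rose when day 0 replicates 1, 2 and 3 were left out in turn, and 3 when 30 h replicate 2 was. The exosome subunit genes Exosc3 and Exosc1 had the largest rise and fall, 1.49-fold and 1.70-fold, and Exosc6 was at 0 in all libraries. Whether Exosc6 was not expressed or its reads were not counted was not tested. The rise of Exosc3 missed the threshold with totals only, with upper-quartile scaling and without day 0 replicate 2 (edgeR adjusted p = 0.642, 0.0729 and 0.0521). Of the genes of the complex that feeds the exosome, Wdr61 rose 1.46-fold, though not with totals only or upper-quartile scaling. The scaffold gene Ttc37 just missed the threshold (40.8 and 27.2 CPM, edgeR adjusted p = 0.0521) and was called lower in 11 of 18 alternatives, among them without 30 h replicate 1 or 3. The helicase gene Skiv2l did not pass (89.5 and 74.9 CPM), and it was called lower with totals only (-0.74), upper-quartile scaling (-0.41) and no filter on low counts (-0.36) and without 30 h replicate 1 (-0.34), and higher after removal of the GC trend (0.45).

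The genes nearest to Pelo and Hbs1l in pattern were sought among 9031 others with a mean of at least 10 CPM, by the root mean square difference of log2 CPM centred over the 6 libraries. Those of Pelo were Copb2 and Sec23a, coat proteins of transport vesicles, at 0.024 and 0.029, and Atpaf1, an assembly factor of ATP synthase, at 0.037. Copb2 went from 287 ± 9.73 to 194.5 ± 35.9 CPM (SD, n = 3 each). Those of Hbs1l were the kinase gene Oxsr1, at 0.025, the phosphatase subunit gene Ppp2r5a, at 0.029, and Abi1, a regulator of actin assembly, at 0.030. Oxsr1 went from 92.3 ± 0.881 to 129 ± 12.2 CPM (SD, n = 3 each).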

How the data were processed

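For each of 6 libraries the authors deposited raw counts per gene, whole numbers with no scaling per the file headers and values. Build mm10, HTSeq 0.6.1p1, STAR, cutadapt 1.13 and DESeq2 are named, without roles or settings, in the submitters' processing notes; strand use in counting is not given there. Symbols, positions, exon lengths and GC content came from GENCODE M21, which held 54165 of the 54232 IDs (67 not found). Promoters came from RefSeq.

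Genes were filtered with edgeR's filterByExpr, scaled by TMM (factors 1.18 to 1.19 at day 0 and 0.82 to 0.873 at 30 h) and tested with edgeR's robust quasi-likelihood F test (edgeR 4.0.16 in R 4.3.3); p-values were adjusted by Benjamini and Hochberg over 16150 genes with a threshold of 0.05. SEs were derived from the F statistic. Ratios of counts within a library were tested by exact permutation of the group labels, two-sided (scipy 1.17.1). Alternatives were other scalings and filters, DESeq2 1.42.0, limma-trend (limma 3.58.1), a test against a 1.5-fold change, a replicate block, removal of each library's GC trend by loess, and each library left out. The fit was tested on simulated data with the same spread for all genes. It called 19.1% of genes changed 1.5-fold, 80.8% of those changed 2-fold and 98.7% of those changed 4-fold. Small changes were thus often missed in the simulation. It changed only 200 genes, whereas 74.5% of all genes tested were called in the real data. The adjustment was therefore stricter in the simulation, and these shares do not give the power of the test here. Replicates differed by more than sampling noise (chi-square per degree of freedom at least 4.02), so none was merged.

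The members and lists were chosen with earlier results of these data known. Named genes are the members, their partners, Itga1 (Pelo lies within it), genes whose exons overlap a member, the 3 nearest in pattern to Pelo and to Hbs1l, and, for each pathway list, the most abundant gene per length and the genes with the largest rise and fall; Eif2d, Mcts1, Denr, Edf1, Usp10, Ascc2, Ascc3, Ufd1, Rchy1, Skiv2l, Ttc37, Wdr61, Exosc6 and the genes named in the closing section outside this rule were added after their values were seen.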

Additional observations from a re-analysis of the deposited data

How the results depend on the processing

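Of 144 values of the 8 rescue and recycling genes under alternatives, 113 kept their direction and their side of the threshold and 8 turned sign; 21 lost a call and 8 gained one, some of them with a turn of sign. With totals only the turns were Hbs1l (-0.007), Nemf (-0.103) and Gtpbp1 (-0.32), and Gtpbp2 went from 3.23 to 2.746 and Ltn1 from -0.87 to -1.356. Pelo and Zfp598 turned with the GC trend removed (0.187 and 0.612) and with that and the replicate block (0.17 and 0.594), and Gtpbp1 without 30 h replicate 1 (-0.046; from there to 0.438 over the libraries left out in turn). Of 611 values of other named genes 21 turned sign: Ascc1 (-0.38), Ascc3 (-0.412), Tcf25 (-0.102), Mcts1 (-0.007), Eif5a (-0.299) and Ifrd2 (-0.112) with totals only; Ascc1 (-0.025) and Ascc3 (-0.088) with upper-quartile scaling; Ascc3 with no filter (-0.03); and, with 1 library left out in turn, Ascc3 (-0.141 to 0.331), Denr (-0.267 to 0.057) and Ascc2 (-0.177 to 0.167), with the turn without 30 h replicate 1 for Ascc3 and Denr and without 30 h replicate 3 for Ascc2. With the GC trend removed Denr (0.273), Ascc2 (0.335), Skiv2l (0.454) and Eef2 (0.247) turned, and with the replicate block added Denr (0.25), Ascc2 (0.296), Ascc3 (-0.063), Skiv2l (0.432) and Eef2 (0.197). With totals only, 3601 genes were called higher, 1 of the 8 members was, and the pathway lists had 13 higher and 34 lower. Against a 1.5-fold change 1 member was higher and 1 lower, and the pathway lists had 17 and 9. With the GC trend removed, log2 differences of ratios were -0.554 for Pelo to Hbs1l, 0.426 for Pelo to Etf1, 1.447 for Hbs1l to Gspt1 and -0.643 for Abce1 to Pelo, and against ribosomal protein genes -2.227 for Abce1, -1.157 for Zfp598, -1.428 for Nemf and -2.689 for Ltn1. The cause of these shifts was not tested.

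The labels do not say whether same-numbered libraries of the groups belong together. Their deviations from the group means were weakly correlated (-0.105, 0.105 and -0.029 for numbers 1, 2 and 3). With 3 libraries per group this cannot tell whether they are paired. With the replicate block 5254 genes were higher and 6277 lower, 3 members were higher and 2 lower, and Abce1 missed the threshold (edgeR adjusted p = 0.0575). Precision was set by the 30 h libraries and, for Pelo, by as few as 151 counts in a library.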

Other observations

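Genes of elongation and of resting ribosomes, which frame the work of the rescue factors, gave 4 higher and 1 lower of 11 (6 lower with totals only, 2 lower without 30 h replicate 1 or 3, and 7 higher with the GC trend removed). Eif5a2, the scarcer of the genes for the factor that relieves pausing during elongation, rose from 15.7 to 81.2 CPM, or 5.16-fold (edgeR adjusted p = 1.02e-06), while Eif5a, the abundant one, did not pass (1929 and 2207 CPM), and was called lower with totals only (-0.30) and higher after removal of the GC trend (0.70). Eef1a1, which delivers transfer RNA to the ribosome, rose 2.46-fold, and Eef2, which moves the ribosome along, did not pass (4912 and 3796 CPM), but was called lower with totals only (-0.86), upper-quartile scaling (-0.53) and no filter on low counts (-0.47) and without 30 h replicate 1 (-0.55), and its sign turned after removal of the GC trend (0.25). Ifrd2, whose protein occupies inactive ribosomes, rose 1.30-fold, though its log2 change of 0.38 was -0.11 with totals only and 1.11 after removal of the GC trend, and Serbp1, which binds resting ribosomes, fell 1.29-fold.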
